A study of Mus musculus and Ochotona curzoniae and Rattus norvegicus with 18 samples.

Results

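The 10 genes described here encode enzymes that remove superoxide and peroxides: the superoxide dismutases SOD1, SOD2 and SOD3, catalase (CAT), the glutathione peroxidases GPX1 and GPX4, the peroxiredoxins PRDX1, PRDX3 and PRDX6, and glutathione reductase (GSR). They were found by gene symbol in the pika tables and by the mouse Ensembl identifier that carries the same symbol. All 10 were present in both species, among 14418 genes joined in this way, and all 10 passed the filter on low values, SOD3 only through its mouse level. RNA had been sequenced from cultured skin fibroblasts of the Tibetan pika (Ochotona curzoniae) and of the C57BL/6J mouse, with 3 libraries each. The tissue is labelled epidermis, and the cells were grown in DMEM with fetal bovine serum and lysed near confluency. No treatment, genetic change, age, passage number or oxygen level is labelled for these libraries, and the labels do not tell whether libraries of 1 species derive from different animals or dishes. If they do not, the p-values measure technical spread alone. The series also holds fibroblast RNA of SD rats and New Zealand rabbits, whose identifiers could not be matched to symbols here, and ChIP-seq of Epas1 knock-in mouse fibroblasts. Neither is analysed here.

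Superoxide leaks from the respiratory chain and from oxidase enzymes. Superoxide dismutases turn it into hydrogen peroxide, which catalase breaks down inside peroxisomes, while glutathione peroxidases and peroxiredoxins reduce it elsewhere in the cell with electrons that come in the end from NADPH. The dismutases act mainly in different places: SOD1 in the cytosol, SOD2 in mitochondria and SOD3 outside the cell. Peroxidases can share a compartment, and GPX1 acts in both the cytosol and mitochondria. In skin fibroblasts these enzymes are known for limiting oxidative damage during growth in culture.

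The totals behind the deposited values were 7703576 to 8481030 reads in pika and 3663102 to 5758950 in mouse. Levels below are rescaled FPKM, that is, fragments per length of gene model, scaled so that the joined genes sum to 1000000 in each library. The test was limma-trend over 10348 genes, and a call needed an adjusted p under 0.05 together with a fold minimum: at least 1 in size for the log2 fold change, as pika over mouse on log2 of the value plus 1. This log scale understates the change of low genes. The species, the mouse strain, the genome and its gene annotation cannot be told apart in this design. The median ratio of mouse to pika model length was 2.25 over the tested genes.

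SOD2 and PRDX1 were higher in pika fibroblasts, SOD1 and SOD3 were lower, and the other 6 genes were not called. The 4 calls among 10 genes compare with 52.2% called among all tested genes, 28.7% higher and 23.5% lower, so this share is near the background. The median log2 fold change of the 10 genes was -0.41, against 0.21 over all tested genes. The library ranges of the species did not overlap for 8 of the 10 genes, as for 89% of all tested genes. The 10 genes together summed to 2585 to 2638 in the pika libraries and 3081 to 3211 in the mouse libraries.

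**Figure D1:**
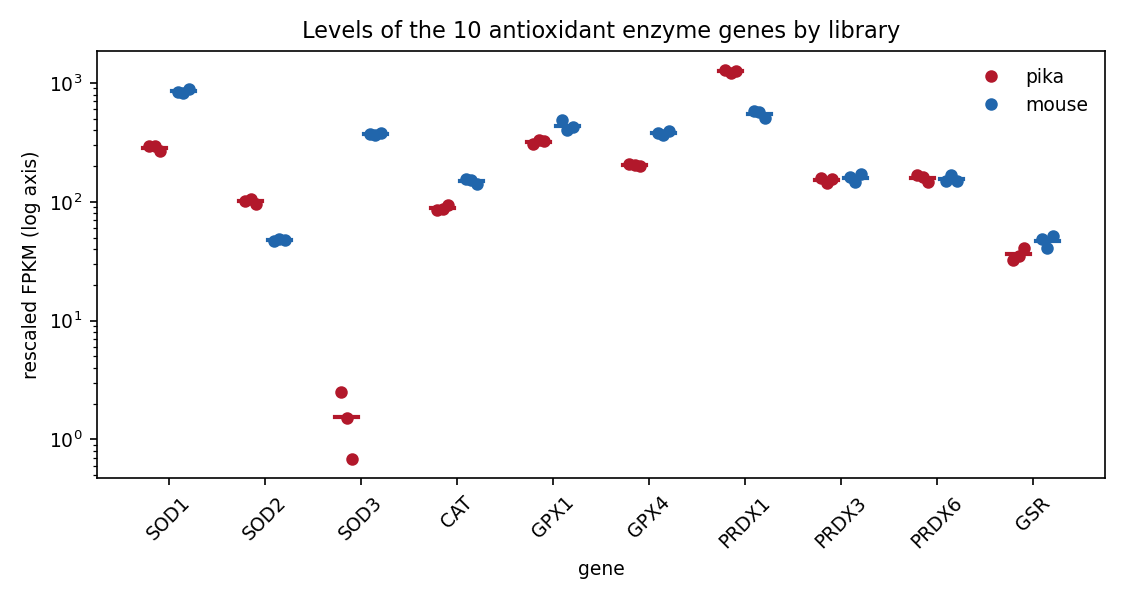
Rescaled FPKM (log axis) of the 10 genes in each of the 3 pika (red) and 3 mouse (blue) libraries, with points for libraries and bars for means. SOD3 lies between 0.683 and 2.49 in pika and between 363.7 and 378.2 in mouse, while PRDX3 and PRDX6 overlap between the species.

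SOD1, the copper and zinc dismutase of the cytosol, was the most abundant of the 10 in mouse and the third in pika. The 3 pika libraries had 292.8, 294.5 and 266.7, and the 3 mouse libraries had 836.9, 827.0 and 884.2. All pika libraries lay below all mouse libraries, with means of 284.7 ± 15.6 and 849.4 ± 30.6 (SD, n = 3). This gave a log2 fold change of -1.57 (SE 0.05, adjusted p = 1.3e-09 by limma-trend), a 2.98-fold lower mean in pika. The SOD1 models were close in length, with 631 bases in pika and 646 in mouse, so division by length changed its own 2 values in nearly the same way. Among 1352 tested genes with a similar ratio of lengths the median log2 fold change was -0.29, and 20.9% of them had a lower value than SOD1. The call depended on the scale: the log2 fold change was -0.28 on the FPKM as deposited and -0.56 on reads not divided by gene length, both under the fold minimum.

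SOD2, the manganese dismutase of the mitochondrial matrix, went the other way. Pika libraries had 102.3, 105.1 and 95.6, and mouse libraries 46.8, 48.8 and 48.1. Every pika library was above every mouse library, and the means of 101.0 ± 4.89 and 47.9 ± 1.03 (SD, n = 3) differed 2.11-fold. The log2 fold change of 1.06 (SE 0.06, adjusted p = 9.1e-08 by limma-trend) was just past the fold minimum. It was 0.89 with median-of-ratios scaling, 0.95 with a trimmed mean of log ratios and 0.79 without gene length, each under the minimum. Without rescaling it was 2.25. The mouse model, with 3824 bases, was 2.49 times as long as the pika model of 1533.

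SOD3, the secreted dismutase that binds to heparan sulfate around cells, showed the widest gap of the 10. Its level was 2.49, 1.50 and 0.683 in pika and 370.8, 363.7 and 378.2 in mouse. It entered the test through the mouse libraries alone, since its mean deposited FPKM in pika, 0.720, is under the filter of 1. It ranked last in pika and level with GPX4 in mouse. The means, 1.56 ± 0.904 and 370.9 ± 7.23 (SD, n = 3), differed 238-fold. The log2 fold change was -7.25 (SE 0.22, adjusted p = 1.7e-09 by limma-trend). The pika values rested on 7, 4 and 2 reads over a model of 747 bases, against 1487, 939 and 1277 reads over 3738 bases in mouse. The size of the pika level is therefore imprecise, but the direction and the call were the same under every alternative run, with log2 fold changes from -7.97 to -5.39. Only 0.4% of all tested genes had a lower log2 fold change.

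The balance among the dismutases was also read within each library, where the scale of the library plays no part. The FPKM of SOD2 divided by that of SOD1 was 0.350, 0.357 and 0.359 in pika and 0.0559, 0.0591 and 0.0543 in mouse. The transcript level of SOD2 thus stood closer to that of SOD1 in every pika library, by 2.65 on the log2 scale. In whole reads, with no division by gene length, the ratio was 0.849 to 0.871 in pika and 0.322 to 0.350 in mouse, a difference of 1.37. The ratio of SOD3 to SOD1 was 0.0085, 0.00509 and 0.00256 in pika and 0.443, 0.440 and 0.428 in mouse. Both ratios kept their direction with and without gene length.

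In the mouse genome (GRCm38.p6, RefSeq) Sod1 lies at chr16:90220762-90226333, Sod2 at chr17:13007839-13018119, Sod3 at chr5:52363804-52369738 and Prdx1 at chr4:116685599-116700000. Promoter windows from RefSeq, 250 bases before to 50 after a start site, were found for 7 of the 10 genes, and not for Sod3, Prdx6 and Gsr. They were searched on both strands for the core of the antioxidant response element (TGACNNNGC), which NRF2 is known to bind. The search also covered ACGTG, 1 form of the core of the hypoxia response element, which HIF proteins bind. This form is called the hypoxia core here, and the form that starts with G (GCGTG) was not searched. The third motif was the E-box (CACGTG), which BMAL1 with CLOCK binds and which contains ACGTG. Sod1 and Prdx1, which were called in opposite directions, each held 1 match to the antioxidant core, on the strand opposite to the gene, and Gpx1 held 1 match to the hypoxia core. No other of the 3 motifs matched in the 10 windows of the 7 genes. Among all 32851 promoter windows, 12.4% held the antioxidant core, 19.6% the hypoxia core and 7.2% the E-box. The 3 stretches with a match are shown 5′ to 3′ on the strand of the gene, with the match in capitals, from chr16:90220662-90220761, chr4:116685419-116685518 and chr9:108338850-108338949, all on the plus strand. A match describes these letters in the mouse only.
Sod1: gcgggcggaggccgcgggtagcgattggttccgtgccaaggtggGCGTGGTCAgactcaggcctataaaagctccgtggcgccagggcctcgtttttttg
Prdx1: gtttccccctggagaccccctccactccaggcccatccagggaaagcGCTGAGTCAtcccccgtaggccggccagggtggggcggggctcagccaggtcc
Gpx1: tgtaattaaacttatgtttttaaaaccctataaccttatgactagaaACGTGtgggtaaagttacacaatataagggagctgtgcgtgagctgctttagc

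PRDX1, the main cytosolic peroxiredoxin, which reduces hydrogen peroxide with thioredoxin as its partner, was the most abundant of the 10 in pika. It stood at 1282, 1223 and 1264 in the pika libraries and at 578.6, 566.2 and 504.6 in the mouse libraries. The pika libraries were all higher, with means of 1257 ± 30.2 and 549.8 ± 39.7 (SD, n = 3), 2.29-fold apart. Its log2 fold change was 1.19 (SE 0.05, adjusted p = 1.4e-08 by limma-trend), and 75.5% of all tested genes had a lower one. Without gene length it was 0.62 and not called. The mouse model was 3.08 times as long, at 3043 bases against 988, and the levels rested on 13990 reads in pika and 4466 in mouse.

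PRDX3, the peroxiredoxin of mitochondria, and PRDX6, which uses glutathione and also acts on phospholipids, did not differ beyond the spread between libraries. PRDX3 had levels of 157.4, 145.3 and 156.0 in pika, beside 160.2, 146.0 and 170.8 in mouse. Its log2 fold change of -0.05 had a 95% interval from -0.19 to 0.09 (adjusted p = 0.43 by limma-trend). PRDX6 had levels of 168.4, 162.0 and 146.4 in pika, beside 149.8, 168.5 and 149.1 in mouse. For this gene the log2 fold change was 0.03, with an interval from -0.12 to 0.18 and an adjusted p of 0.69 by limma-trend. The species overlapped in both genes. Those intervals hold for the shared-gene scale alone. On the FPKM as deposited both were called higher, at 1.21 and 1.30, and without gene length PRDX6 was called lower, at -1.36. The PRDX6 models had 881 bases in pika and 4804 in mouse.

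Within a library, PRDX3 and PRDX6 stood lower relative to PRDX1 in pika than in mouse. The FPKM ratio of PRDX3 to PRDX1 was 0.123, 0.119 and 0.123 in pika and 0.277, 0.258 and 0.338 in mouse. That of PRDX6 to PRDX1 was 0.131, 0.132 and 0.116 in pika and 0.259, 0.298 and 0.295 in mouse. The log2 differences of -1.25 and -1.17 became -0.24 and -1.99 in whole reads, with no overlap between the species in either measure.

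Catalase, the heme enzyme of peroxisomes, had levels of 85.2, 87.7 and 93.2 in pika, against 154.1, 151.3 and 139.8 in mouse. All pika libraries were lower, at 88.7 ± 4.07 against 148.4 ± 7.57 (SD, n = 3). Its log2 fold change of -0.74 (SE 0.06, adjusted p = 1.0e-06 by limma-trend) stayed inside the fold minimum and was not called. It was 0.54 without rescaling. The length worked out for mouse Cat, 871 bases, can be too small by a whole factor that its reads share, and the reads with it, so its value without gene length, 1.64, is not a measure of direction. The mouse gene lies at chr2:103453904-103485153.

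GPX1 and GPX4 are selenoproteins: GPX1 reduces hydrogen peroxide in the cytosol and mitochondria, and GPX4 reduces lipid peroxides in membranes and is known for holding back ferroptosis. Pika libraries held GPX1 at 305.8, 328.4 and 328.0, and mouse libraries at 485.8, 404.9 and 423.3. For GPX4 the pika values were 209.0, 202.4 and 200.1, and the mouse values 379.5, 363.6 and 398.1. Both were lower in every pika library than in every mouse library, by log2 fold changes of -0.44 (SE 0.06) and -0.90 (SE 0.04), which had adjusted p of 0.00012 and 3.0e-08 by limma-trend but stayed inside the fold minimum. GPX4 passed it at -1.07 with median-of-ratios scaling and at -1.01 with the trimmed mean. On the FPKM as deposited both had a positive sign, at 0.84 and 0.39. The ratio of GPX4 to GPX1 was 0.683, 0.616 and 0.610 in pika and 0.781, 0.898 and 0.941 in mouse, with no overlap.

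Reads of Gpx4 can be shared with a pseudogene. The mouse row named Gpx4-ps2 had 6.54, 10.97 and 9.27 FPKM, where Gpx4 had 70.7, 68.6 and 75.8, and its reads came to 4.3%, 7.4% and 5.6% of those of Gpx4. For PRDX6, the near copy Prdx6b was above 0 in a single mouse library, at 0.189 FPKM, and Prdx6-ps2 was listed at 0. Pika rows are not named as copies of these genes, so the same could not be counted there.

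GSR, which uses NADPH to return oxidised glutathione to its reduced form, was the lowest of the 10 in mouse, level with SOD2, and the ninth in pika. Its values were 32.7, 35.3 and 40.8 for pika, and 49.1, 41.0 and 51.5 for mouse. The closest libraries of the species, 40.8 and 41.0, nearly met. The log2 fold change of -0.37 (SE 0.11, adjusted p = 0.010 by limma-trend) was not called, and it was 0.85 without rescaling. The ratio of GSR to GPX1 was 0.107, 0.107 and 0.124 in pika and 0.101, 0.101 and 0.122 in mouse, and here the species overlapped. In whole reads it was 0.139 to 0.162 in pika and 0.193 to 0.232 in mouse, with no overlap. The ratio of CAT to GPX1 was 0.279, 0.267 and 0.284 in pika and 0.317, 0.374 and 0.330 in mouse.

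**Figure D2:**
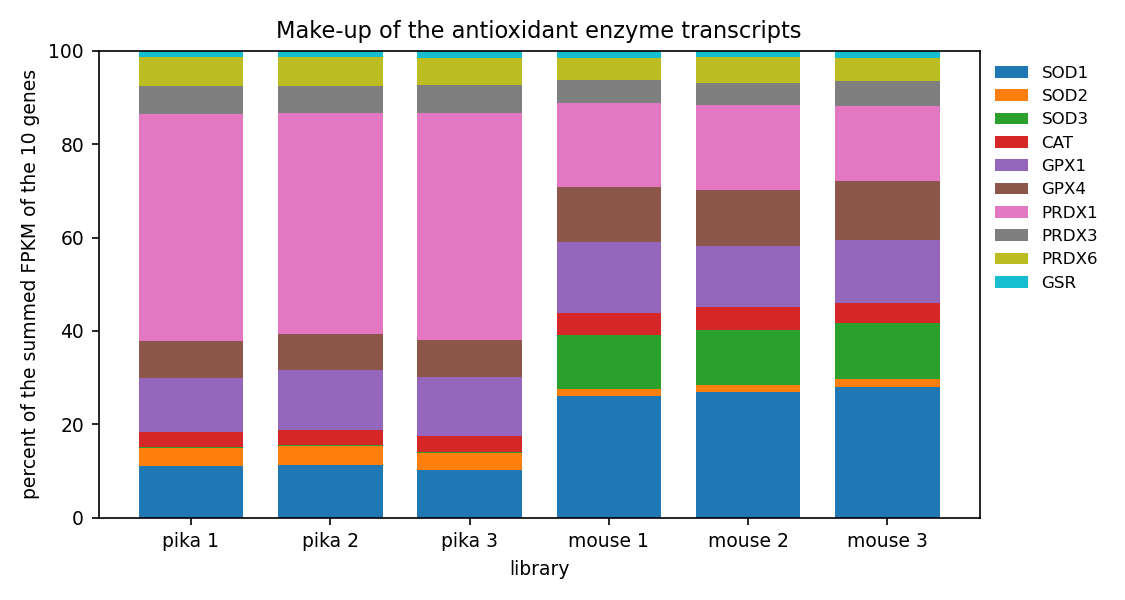
Each gene as a percent of the summed FPKM of the 10 genes, stacked to 100, for the 3 pika and 3 mouse libraries. PRDX1 makes up 47.3% to 48.8% in pika and 16.0% to 18.4% in mouse, and SOD1 10.3% to 11.4% and 26.1% to 28.1%. The shares depend on the gene model lengths, which differ between the species.

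As parts of the summed FPKM of the 10 genes, the transcripts were shared out differently in the species. PRDX1 held 48.2% of the sum in pika and 17.5% in mouse on average. SOD1 held 10.9% and 27.0%, and SOD3 held 0.0595% and 11.8%. SOD2 held 3.88% and 1.52%, GPX4 7.82% and 12.1%, and CAT 3.40% and 4.72%. GPX1 held 12.3% and 13.9%, PRDX3 5.87% and 5.05%, PRDX6 6.1% and 4.96%, and GSR 1.39% and 1.5%. These shares depend on gene length. The mouse model was 1.02 times as long as the pika model for SOD1, 3.08 times for PRDX1 and 5.45 times for PRDX6. In whole reads summed over the 3 libraries, SOD1 had 2020 in pika and 1465 in mouse, PRDX1 13990 and 4466, and PRDX6 1575 and 1978. Shares of whole reads were not worked out, and would differ from those in FPKM. In pika the order of levels was PRDX1, GPX1, SOD1, GPX4, PRDX6, PRDX3, SOD2, CAT, GSR and SOD3, and only PRDX6 and PRDX3 overlapped as neighbours. In mouse it was SOD1, PRDX1, GPX1, GPX4, SOD3, PRDX3, PRDX6, CAT, SOD2 and GSR. There GPX4 with SOD3, PRDX3 with PRDX6, PRDX6 with CAT and SOD2 with GSR could not be ordered beyond their spread.

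**Figure D3:**
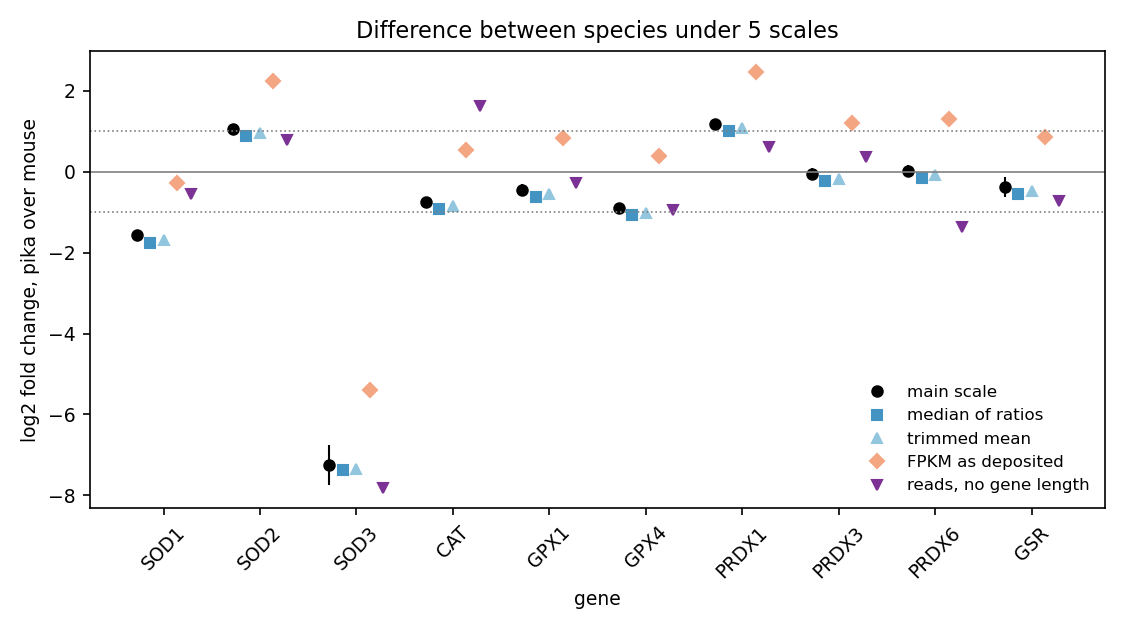
Log2 fold change, pika over mouse, of each gene on the main scale (black, with its 95% interval), with 2 other scalings, on FPKM as deposited and on reads not divided by gene length; dotted lines mark the fold minimum of 1 in either direction. SOD3 stays below -5 on all 5, and CAT, GPX1, GPX4 and GSR lie above 0 on FPKM as deposited.

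The signs of the smaller differences rested on the scale. On FPKM as deposited the median log2 fold change of all tested genes was 1.29, against 0.21 on the main scale. The joined genes held 87.1% of the pika FPKM and 37.0% to 38.3% of the mouse FPKM. Rescaling multiplies each library by a constant, so it moves the members and this median nearly alike. SOD2, for example, lay 0.85 above the median on the main scale and 0.97 above it as deposited, while PRDX6 went from -0.18 to 0.01. As deposited, 4 of the 10 genes were called higher, where 58.3% of all tested genes were, and 1 lower, where 10.7% were. Without gene length SOD3 and PRDX6 were called lower, where 26.2% of tested genes were. The single higher call, where 25.9% were, was CAT, whose reads and length are in doubt as said above.

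Related genes of the same chemistry are given next, from 6 lists that hold none of the 10. Calls were made for 42 of 63 tested genes, 18 of them higher and 24 lower in pika. For all tested genes the shares were 52.2% called, 28.7% higher and 23.5% lower, and each list below is to be read against these. Without rescaling 30 were called higher and 10 lower, so the counts by direction that follow hold for the shared-gene scale. XDH, MAOB, TXNIP, TXNRD3 and ALDH1L1 had a mean deposited FPKM under 1 in pika and passed the filter through mouse alone. They could therefore enter the counts only on the lower side. SLC7A11 and PEX7 were under 1 in mouse and passed through pika alone.

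The remaining members of the glutathione peroxidase and peroxiredoxin families gave 4 genes called lower and 1 higher among 6 tested. GPX3, the secreted glutathione peroxidase, averaged 22.5 in pika against 882.5 in mouse, a log2 fold change of -5.28. Its pika model was worked out at 246 bases with 63 reads, and both can be too small by a shared whole factor. GPX8 (-3.68), an enzyme of the endoplasmic reticulum, and PRDX5 (-3.43) were also lower, on every scale tried. PRDX4, the peroxiredoxin of the endoplasmic reticulum, was the gene called higher, at 314.7 against 114.3 (1.46), again on every scale. GPX2, GPX5 and GPX6 were listed at 0 in all 6 libraries.

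The thioredoxin, glutaredoxin and glutathione synthesis list also holds repair enzymes and TXNIP, so its counts do not measure electron supply alone. Of its 16 tested genes 4 were called higher, 7 lower and 5 neither. The median was -0.27, against 0.21 over all genes. Lower were TXNIP, which binds and blocks thioredoxin (0.640 in pika on 20 reads against 230.1 in mouse, -7.14 on the log2 scale), MSRB1, a selenoprotein that repairs oxidised methionine (-4.73), and TXNRD3, which was listed at 0 in each pika library. TXNRD1, the cytosolic thioredoxin reductase, at 68.5 against 433.5 (-2.64), and SRXN1, which restores overoxidised peroxiredoxins (-3.41), were lower too and were chosen after their values were seen. GLRX2 (3.25), SLC7A11 (1.71), the cystine carrier, and GLRX (1.19) were higher, but without gene length their values were 0.54, -0.03 and 0.18, and no gene of this list was called higher.

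CCS, the chaperone that loads copper into SOD1, averaged 24.8 against 115.7 (-2.19), and like SOD1 it was not called on the FPKM as deposited (-0.88). In its list of copper carriers and peroxisome import genes 3 of 10 were called higher and 3 lower, near the shares over all genes. PEX7 (2.18), PEX3 (1.31) and PEX14 (1.22) were higher, and PEX5 (-1.80), the receptor that carries catalase into peroxisomes, and PEX19 (-1.04) were lower. The 3 higher genes lost their call without gene length.

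Enzymes that make superoxide or hydrogen peroxide were called lower in 6 of 9 tested and higher in 2, where 23.5% and 28.7% of all genes were. XDH, xanthine dehydrogenase, was at 0.504 in pika on 23 reads and 246.5 in mouse (-7.37). LOX, lysyl oxidase (-2.25), and MAOB (-2.23, on 16 pika and 49 mouse reads) were lower. XDH and MAOB could count only as lower, as said above. NOX4 (1.56), a superoxide-producing oxidase of fibroblasts, and LOXL2 (1.17) were higher. NOX4 lost its call without gene length (0.75) and LOXL2 with median-of-ratios scaling (0.99). On the FPKM as deposited XDH was the single gene of this list called lower. Selenoprotein synthesis genes had calls near the shares over all genes: 3 of 8 were higher, SCLY (2.19), SEPSECS (1.64) and SEPHS1 (1.36), and 2 were lower, SECISBP2 (-1.59) and SEPHS2 (-1.28, and -0.90 without gene length, not called). Among NADPH supply genes 5 of 14 were higher and 2 were lower. The mitochondrial transhydrogenase NNT, at 146.1 against 29.9 (2.25), MTHFD2 (2.16) and NADK2 (1.80) led the higher ones, all 3 on every scale. All mouse libraries are of the C57BL/6J strain, so strain and species cannot be told apart for NNT or any other gene. Lower were ALDH1L1 (-4.14, on 18 pika reads) and NADK (-1.27).

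**Figure D4:**
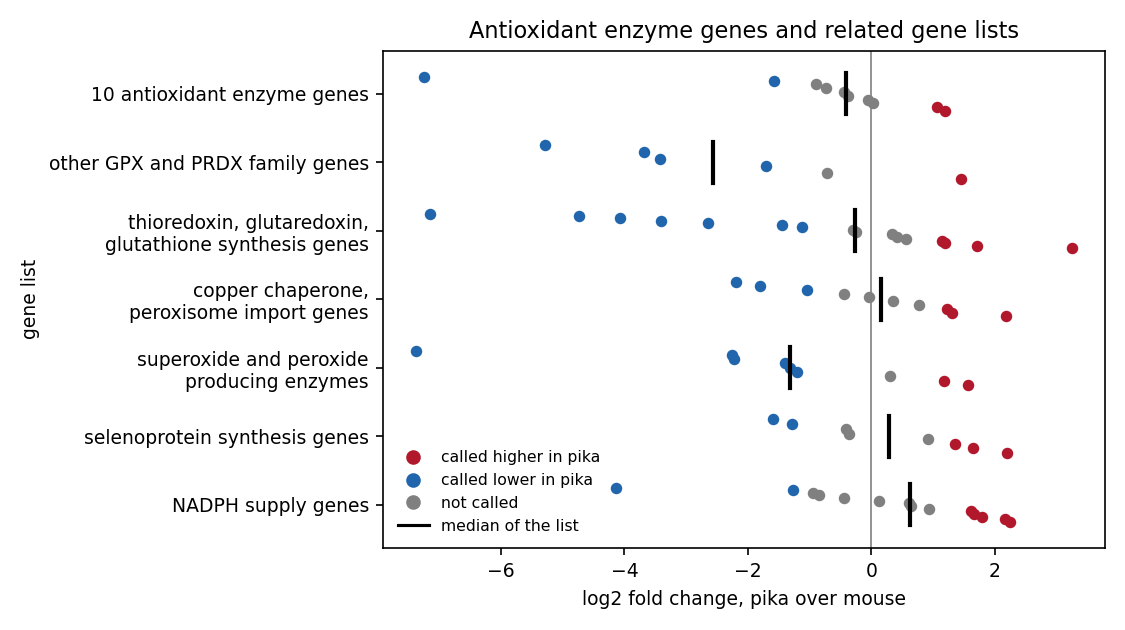
Log2 fold change, pika over mouse, of each tested gene in the 10 antioxidant enzyme genes and in 6 related lists, on the main scale, with red for called higher, blue for called lower and grey for not called; black bars are medians. The medians run from -2.56 for the other GPX and PRDX genes to 0.63 for NADPH supply genes.

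Markers were used to check the cell label. Fibroblast markers were abundant in both species, summing to 12600 to 13000 in pika and 14100 to 14500 in mouse over 9 genes, mostly COL1A1, VIM, FN1 and COL1A2, none of which was called. COL3A1 (22.9 against 954.8), PDGFRA (3.48 against 65.1) and PDGFRB (187.0 against 386.7) were called lower in pika and DCN (269.0 against 115.3) higher. The other lists had lower sums. The 8 keratinocyte markers summed to 25.6 to 27.8 in pika and 47.8 to 53.9 in mouse, and KRT5 and KRT14, which define basal keratinocytes, were listed at 0 in pika and averaged 0.220 and 0.210 in mouse. Of that list, the junction genes PKP1 (26.7 in pika against 0.0734) and DSP (0.153 against 45.2) held most of the sum, in opposite species. The 5 melanocyte markers summed to 68.1 to 78.5 in pika and 54.8 to 58.3 in mouse. MITF (40.25 against 50.45, not called) and PMEL (31.6 against 4.97, called higher) held most of this. TYR averaged 0.625 in pika against 0.0 in mouse, TYRP1 0.0 against 0.171 and DCT 0.466 against 0.627. The 6 endothelial markers summed to 0.707 to 1.60 in pika and 32.3 to 39.3 in mouse. For the 5 macrophage and leukocyte markers the sums were 14.1 to 15.2 and 34.2 to 43.0. For the 3 erythroid markers they were 3.65 to 5.32 and 0.928 to 2.55. PTPRC, which defines leukocytes, was listed at 0 in pika and averaged 0.127 in mouse, while CSF1R (0.668 against 12.2) and CD68 (3.35 against 15.8) were called lower in pika. CD14 held most of the pika sum, at 10.8 against 8.02 in mouse, and was not called. ADGRE1 was at 0 in pika and averaged 2.3 in mouse. Most of the endothelial sum in mouse was TEK, at 0.702 against 31.4, called lower like CSF1R and CD68. TEK, CSF1R and DSP passed the filter through mouse alone, and PMEL and PKP1 through pika alone. The part of these differences in the results above was not tested, and fewer cells of a type and less RNA per cell cannot be told apart in bulk samples.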

How the data were processed

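RNA-seq of 3 pika and 3 mouse fibroblast libraries was used. The deposited files hold 1 FPKM value per gene, per the file headers, made by the authors; the submitters' processing notes name CASAVA 1.9, edgeR 3.28.1, featureCounts and STAR 2.6.1a with no role for each, and GRCm38 as the build for both species. The sources used here do not give the pika annotation. Mouse identifiers were named for 49326 of 49585 rows, and symbols found once in each table joined 14418 genes, which held 87.1% of pika FPKM and 37.0% to 38.3% of mouse FPKM. The joined genes were rescaled to 1000000 per library. Genes with a mean deposited FPKM of at least 1 in either species were tested with limma 3.58.1 (R 4.3.3) by limma-trend on log2(value + 1), two-sided, with Benjamini-Hochberg adjustment. Library totals, model lengths and whole reads were derived from the steps between FPKM values with a tolerance of 0.002 reads. On 4000 simulated rows, of which 3442 were above 0 in at least 2 libraries, 87.3% came back with the true reads and length, and 95.0% did so up to a common whole divisor. On data simulated for the pika and mouse comparison from mouse levels, with 9401 genes, calls were made for 100 of 100 genes raised 4-fold, 100 of 100 lowered 3-fold and 2 of 9201 unchanged genes; this simulation held no difference in annotation. No replicate held a copy of the values of another (mean chi-square per gene 1.16 to 1.54, where sampling alone gives about 1). These values do not tell whether the libraries derive from different animals or dishes. The 10 genes and the lists were chosen with earlier results of these data known. The text names each of the 10 and, from each related list, up to 3 called genes per direction with the largest fold change. Alternatives were other scalings, pseudocounts, filters, models, leaving out each library and a replicate block. Python 3.11.15, numpy 2.4.6, pandas 2.3.3, scipy 1.17.1 and matplotlib 3.10.9 were used.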

Additional observations from a re-analysis of the deposited data

How the results depend on the processing

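Over all tested genes 2970 were called higher and 2433 lower; without rescaling these were 6029 and 1106, and with the filter at a mean FPKM of 5 the lower calls were 1584. Of the 10 enzyme genes 2 were called higher and 2 lower, which became 4 and 1 without rescaling, 1 higher with median-of-ratios scaling, 1 with the trimmed mean (TMM) and 1 without gene length. Of the related genes 18 were called higher and 24 lower, against 30 and 10 without rescaling and 11 higher without gene length. Signs turned without rescaling for CAT (0.54), GPX1 (0.84), GPX4 (0.39), PRDX3 (1.21) and GSR (0.85), without gene length for PRDX3 (0.37) and PRDX6 (-1.36), and for PRDX6 with median-of-ratios scaling (-0.15) and the trimmed mean (-0.08). The cause was not tested. CAT without gene length (1.64), and its ratio to GPX1 below, rest on mouse reads that can be too few by a whole factor, and show no direction. Without gene length the log2 ratio differences, pika minus mouse, were 1.37 for SOD2 to SOD1 (2.65 with it), -8.80 for SOD3 to SOD1 (-6.51), -0.24 for PRDX3 to PRDX1 (-1.25), -1.99 for PRDX6 to PRDX1 (-1.17), -0.69 for GPX4 to GPX1 (-0.45), 1.94 for CAT to GPX1 (-0.30) and -0.49 for GSR to GPX1 (0.07).

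Leaving out each library in turn gave 2 higher and 2 lower enzyme genes each time. The log2 fold change of PRDX6 then ran from -0.01 to 0.09, crossing 0 without pika replicate 1 and without mouse replicate 3, and the GSR to GPX1 difference from -0.01 to 0.15, crossing 0 without pika replicate 3. The order of the 10 genes in mouse library 1 alone kept 6 at their place, and library 2 alone kept 5. With the replicate number as a block, 2972 genes were called higher and 2433 lower, and 2 and 2 of the enzyme genes. No label pairs the same-numbered libraries of the species. Their deviations correlated at -0.009, 0.048 and 0.009, and those of the differently numbered libraries at -0.042 to 0.037. With 3 libraries per species, these values cannot tell whether same-numbered libraries share a batch. Among lists, calls in the thioredoxin and glutathione list went from 4 to 7 higher without rescaling and 0 without gene length, and in the peroxide-producing list from 6 to 1 lower without rescaling. The count test planned for whole reads was not run, since only FPKM was held; limma-voom on those reads, added after the data were seen, called 2884 genes higher and 2268 lower. Depth limits SOD3 in pika, with 13 reads over 3 libraries.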
